A study of Mus musculus with 6 samples.

Results

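The genes described are 10 mouse histone variants whose mRNAs are polyadenylated: *H2afz* and *H2afv* (H2A.Z), *H2afx* and *H2afj*, *H2afy* and *H2afy2* (macroH2A), *H3f3a* and *H3f3b* (H3.3), and the linker histone genes *H1f0* and *H1fx*. They were chosen by symbol, under the older mouse names, and all 10 were found among the 47069 genes of the count table. All 10 passed the filter on low counts, which 14736 genes passed in all. Their values are given as CPM, the count divided by the total of the library and scaled to a common total.

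The libraries were bulk poly(A) RNA-seq libraries of LβT2, an immortalized mouse cell line derived from pituitary gonadotropes, all at passage 14 and all exposed to 2 nM gonadotropin-releasing hormone (GnRH) for 40 min. In the fresh group (3 libraries) the trypsinized cells were lysed directly in guanidinium buffer, and in the RNA-Best group (3 libraries) they were first held for a minimum of 4 days at 4 °C in the preservation reagent RNA-Best. No library came from cells without GnRH, so no effect of GnRH can be read here. The groups compared differ in handling, and also in depth, as given below. LβT2 is 1 cell line, and no source used here names separate cultures behind replicate libraries, so that p-values measure the spread between libraries, which may be technical.

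The fresh libraries held between 14477304 and 47438746 counts and the RNA-Best libraries between 4909418 and 11999363, so every fresh library was the deeper. Of 8 gonadotrope markers, 7 had counts in every library, with *Cga*, the common hormone alpha subunit, at means of 1813 CPM in fresh and 1426 CPM in RNA-Best cells, while *Fshb*, the follicle-stimulating hormone beta subunit, was at 0 in all. Of the gonadotrope markers *Cga*, *Chga*, *Nr5a1* and *Pitx1* fell after storage (log2 fold change -0.36, -0.25, -0.21 and -0.22), *Gnrhr* and *Foxl2* rose (0.43 and 0.33), and *Lhb* did not pass (0.03, edgeR adjusted p = 0.775). Of 6 markers of other pituitary cells, *Prl* and *Pou1f1* were at 0 in all libraries and the highest value was 2.28 CPM, for *Tshb*. At low means of 0.909 CPM in fresh and 1.64 CPM in RNA-Best cells, *Tshb* rose (log2 fold change 0.91, edgeR adjusted p = 0.0035). The 6 markers summed to between 0.789 and 1.11 CPM in fresh and between 1.42 and 2.28 CPM in RNA-Best libraries, and the part of these marker differences in the results was not tested.

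Most histone genes are expressed in S phase, and their mRNAs end in a stem-loop in place of a poly(A) tail. Variant genes are expressed throughout the cell cycle, carry introns in many cases and give polyadenylated mRNAs, and their proteins replace the canonical histones at particular sites of chromatin. H2A.Z and H3.3 are found at promoters and regulatory elements, phosphorylated H2A.X marks DNA breaks, macroH2A is enriched in silent chromatin, and linker histones bind the DNA between nucleosomes.

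The 3′ ends of the transcripts were read from GENCODE sequences (GRCm38), with 1 principal transcript for each gene. A poly(A) signal, AATAAA or ATTAAA on the transcript strand, stood in the last 50 bases of 8 of the 10 variant transcripts (80%), of 14 of 65 replication-dependent histone transcripts (21.5%) and of 72.4% of the 21326 protein-coding transcripts. One variant of each class is shown, since this part of the transcript bears on its capture by poly(A) selection. The signal is in capitals, and the window of 30 bases lies near or at the transcript end. In H2afy2-201 the motif starts 7 bases from the end, in an A-rich stretch, where the others start 21 to 35 bases from it. Whether this motif serves as a signal was not tested.
H2afz-201: ctctgcttactaATTAAAcagtgcatctgt
H2afx-201: tgggctaattttATTAAAggatcgtttggt
H2afy2-201: aaaaagaaaaatgagaagaaaaaAATAAAa
H3f3a-205: aatttgaaaaatAATAAAagtaccaataga
H1f0-201: ttaaaactttaaAATAAAactggaaaggaa
In the last 50 bases of the principal transcripts of *H2afy* and *H3f3b* neither motif was found. Of the complete coding transcripts, 1 of 2 held one for *H3f3b* and 0 of 2 for *H2afy*. The histone stem-loop, searched by its known stem and loop pattern of 16 bases on the transcript strand within 100 bases after the stop codon, was in 44 of 65 replication-dependent transcripts (67.7%) and in 0.239% of all protein-coding transcripts. Among the variants it was in *H2afx* alone of the 10, from base 47 after the stop codon, with the stem in capitals.
H2afx stem-loop: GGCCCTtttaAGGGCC
*H2afx* is known to give both kinds of mRNA, and poly(A) libraries hold the polyadenylated one.

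Storage in RNA-Best went with slightly lower counts of the variant genes. Of the 10 genes, 9 fell in RNA-Best and 0 rose at a false discovery rate of 5% (edgeR's quasi-likelihood test, Benjamini-Hochberg adjustment over all tested genes), whereas of all tested genes 24.8% fell and 26% rose (50.8% called in either direction). The median log2 fold change, RNA-Best minus fresh, was -0.14 over the 10 variants and -0.0074 over all tested genes. The changes were small, the largest being 0.27 in absolute value. In all 10 genes the CPM of the groups did not overlap, as in 57.5% of all tested genes. Summed over the 10 genes, the level was between 4151 and 4285 CPM in fresh and between 3822 and 3846 CPM in RNA-Best libraries. In bulk RNA a change in the share of cells that express a gene and a change in RNA per cell cannot be told apart.

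Gene length moved with these values. The exonic lengths of the variants ran from 1217 to 6809 bases with a median of 1943, against a median of 3924 over all tested genes, and across the 14689 tested genes with a length the log2 fold change rose with exonic length (Spearman's rho = 0.52, across genes, which are not independent replicates). With an offset for exonic length in the fit, 5 of the 10 variants fell (25.4% of all genes with a length) and 0 rose (15.4% of all genes with a length). With the length of the longest coding transcript in the offset, a setting chosen after seeing the data, 4 fell (23.1% of all genes). With an offset for GC content 6 fell (26.4% of all genes). Under the offsets for exonic length, coding transcript length and GC content the median over all genes was -0.0406, -0.0373 and -0.0294. It was -0.0074 in the main fit, so small log2 fold changes under an offset are to be read against these medians.

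**Figure D1:**
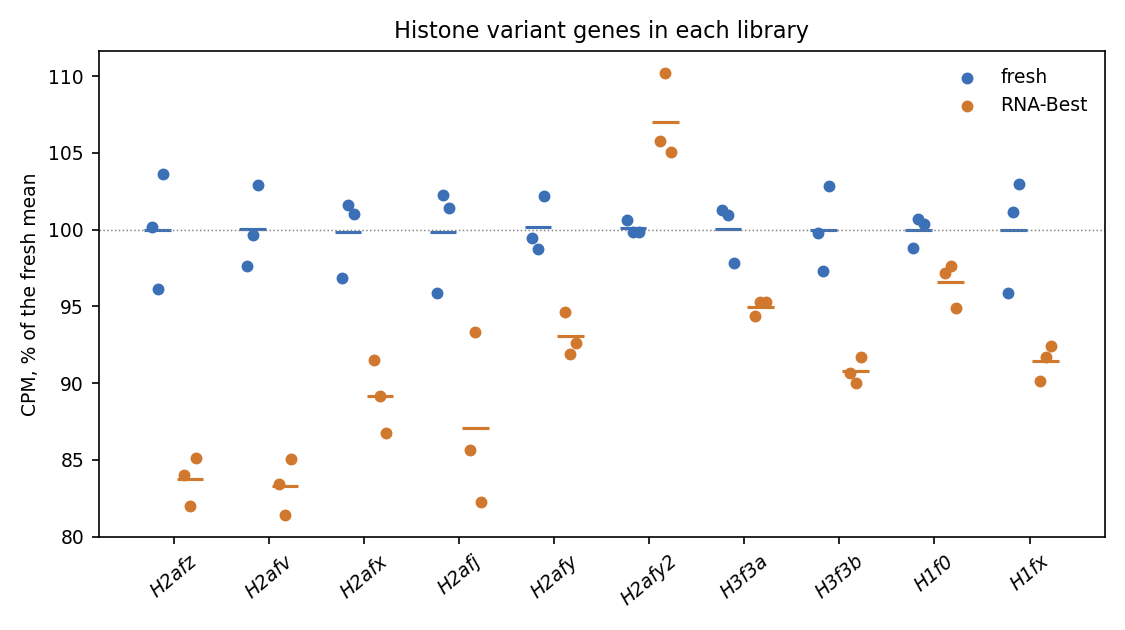
CPM of each variant gene in each library (points; short lines, group means), as a percentage of that gene's mean in the 3 fresh libraries. The 3 RNA-Best points lie below all fresh points in 9 genes and above them in *H2afy2*.

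The H2A.Z genes fell in RNA-Best, and the decrease was larger than the spread between libraries for both. *H2afz* (chr3:137864487-137866922, plus strand) encodes H2A.Z.1, the more abundant of the pair, and had 547, 525 and 566 CPM in the fresh libraries and 459, 448 and 465 CPM in the RNA-Best libraries. The lowest fresh library exceeded the highest RNA-Best library by 60.6 CPM. The mean went from 546 ± 20.2 to 457 ± 8.42 CPM (SD, n = 3 each), a log2 fold change of -0.26 ± 0.029 (SE, edgeR adjusted p = 2.25e-09). *H2afv* (chr11:6427229-6444443, minus strand) encodes H2A.Z.2 and had 241, 246 and 254 CPM in fresh and 206, 201 and 210 CPM in RNA-Best libraries, again with no overlap. Its log2 fold change was -0.27 ± 0.031 (SE, edgeR adjusted p = 5.31e-09). Both genes fell under all 18 other settings, and with the length offset their log2 fold changes were -0.16 each (edgeR adjusted p = 2.23e-05 for *H2afz* and 4.47e-05 for *H2afv*).

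The coding sequences of the H2A.Z genes encode proteins of 128 residues that differ in 3, but 81 of the 387 coding bases differ. The first 90 coding bases are shown for both, with the 19 differing bases in capitals, because they let reads of the genes be told apart.
H2afz: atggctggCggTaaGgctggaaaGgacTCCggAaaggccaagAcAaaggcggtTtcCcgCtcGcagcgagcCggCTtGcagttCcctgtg
H2afv: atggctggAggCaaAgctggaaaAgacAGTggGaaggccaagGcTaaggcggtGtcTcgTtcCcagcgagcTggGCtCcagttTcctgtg
The longest identical run between them is 14 bases, well under the length of a read. *H2afz* made up 69.4%, 68.1% and 69% of the counts of the pair in the fresh libraries and 69.1%, 69.1% and 68.9% in the RNA-Best libraries, and the groups overlapped. The difference in the log2 ratio of *H2afz* to *H2afv* was 0.010 (exact permutation test over libraries, two-sided, p = 0.8, n = 3 and 3), within the larger SD of 0.043.

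The counts of *H2afz* share more sequence with other genes than those of *H2afv*. Of the windows of read length in the principal *H2afz* transcript, 58.7% occur as well in transcripts of other genes, among them *Tmcc1* on another chromosome, a gene of an endoplasmic reticulum membrane protein, while for *H2afv* the share was 0. The table holds parts of counts for *H2afz* in all 6 libraries and for *H2afv* in 1. *Tmcc1* had a mean of 117 ± 9.58 CPM in fresh and 96.2 ± 1.14 CPM in RNA-Best libraries. Alone it gave -0.27 ± 0.047 (SE, edgeR adjusted p = 7.87e-06), and -0.72 with the length offset. The copies added to *H2afz* were all counts of *Tmcc1* and 2 processed pseudogenes. These pseudogenes reached 0.217% of *H2afz* in fresh and 0.157% in RNA-Best cells. The sum gave -0.27 (edgeR adjusted p = 1.85e-09). It cannot separate misplaced *H2afz* reads from *Tmcc1* mRNA, and the share of each was not tested.

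The study also used *H2afz* as a house-keeping gene in quantitative PCR. Its primers, tccagtggactgtatctctgtga and gactcgaatgcagaaatttgg, are shown because their sites separate *H2afz* from its copies. They lie in the 3′ UTR of H2afz-201, at bases 661 to 683 and 752 to 772, the latter on the opposite strand, and span 112 bases. Transcripts of only 1 gene, *H2afz*, held a site for either primer. Beside other genes commonly used as references, the log2 fold change of *H2afz* (-0.26) stood beside those of *Rps25*, a ribosomal protein gene (-0.27 ± 0.033, edgeR adjusted p = 1.56e-08), and *Gapdh* (-0.31 ± 0.031, adjusted p = 2.31e-10), that of *Actb* was -0.17 ± 0.028 (adjusted p = 5.42e-06), and *Eef1a1*, a translation elongation factor gene, gave -0.03 ± 0.027 (adjusted p = 0.381), with SE in each case. With the length offset the values were -0.16 for *H2afz*, -0.21 for *Rps25*, -0.32 for *Gapdh*, -0.11 for *Actb* and 0.04 for *Eef1a1*. Differences between these genes were not tested.

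The genes *H2afx* and *H2afj* fell as well. *H2afx* (chr9:44334694-44336077, plus strand), the only variant of the 10 whose protein has the SQ pair within its last 4 residues, which is the site phosphorylated at DNA breaks, had 163, 171 and 170 CPM in fresh and 154, 150 and 146 CPM in RNA-Best libraries. The gap between the groups was 9.61 CPM, and the log2 fold change was -0.18 ± 0.034 (SE, edgeR adjusted p = 2.89e-05). *H2afj* (chr6:136808244-136810074, plus strand), whose protein is close to canonical H2A, was low, at 22.5, 24 and 23.8 CPM in fresh and 20.1, 21.9 and 19.3 CPM in RNA-Best libraries. The groups were 0.652 CPM apart, and the log2 fold change was -0.23 ± 0.07 (SE, edgeR adjusted p = 0.00556). Neither call held with the length offset (-0.07, adjusted p = 0.122 for *H2afx*, and -0.14, adjusted p = 0.111 for *H2afj*). The call of *H2afx* was also lost with the GC offset (-0.05, edgeR adjusted p = 0.238), and that of *H2afj* was lost without RNA-Best replicate 3 (adjusted p = 0.0979) and at equal depth (adjusted p = 0.612).

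The macroH2A genes are the pair in which the values went in opposite directions. *H2afy* (chr13:56073619-56136361, minus strand), which encodes macroH2A1, had 145, 144 and 149 CPM in fresh and 138, 134 and 135 CPM in RNA-Best libraries, and its log2 fold change was -0.11 ± 0.034 (SE, edgeR adjusted p = 0.0068). *H2afy2* (chr10:61738665-61784147, minus strand), which encodes macroH2A2, had 13.6, 13.5 and 13.5 CPM in fresh and 14.3, 14.9 and 14.2 CPM in RNA-Best libraries. Every RNA-Best value of *H2afy2* was above every fresh value, but its log2 fold change of 0.07 ± 0.081 did not pass the test (SE, edgeR adjusted p = 0.483, and between 0.151 and 0.843 under the other settings). *H2afy* made up 91.4%, 91.4% and 91.7% of the pair's counts in fresh and 90.6%, 90% and 90.5% in RNA-Best libraries, without overlap. The log2 ratio of *H2afy* to *H2afy2* differed by -0.200 (exact permutation test over libraries, two-sided, p = 0.1, n = 3 and 3, the smallest p this design allows) and by -0.345 at equal depth.

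The value of *H2afy* depended on which length was taken, since its exons join to 6809 bases while its longest coding transcript has 2046. Its log2 fold change was -0.25 with the offset for exonic length (adjusted p = 3.04e-07) and -0.05 with that for coding transcript length (adjusted p = 0.249, edgeR). The protein sequences of the pair were 68.9% identical. Windows of *H2afy2* were shared for 6.51% with *Aifm2*, an overlapping gene on the same chromosome, which gave -0.26 ± 0.065 (SE, edgeR adjusted p = 0.000825), and whether reads were counted by strand is not given in the sources used here.

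The H3.3 genes encode the same protein. *H3f3b* (chr11:116021912-116027962, minus strand) had the highest level of the 10, at 1655, 1614 and 1706 CPM in fresh and 1504, 1493 and 1521 CPM in RNA-Best libraries, with 92.7 CPM between the groups. Its log2 fold change was -0.15 ± 0.027 (SE, edgeR adjusted p = 1.18e-05), and it fell under all 18 other settings, with -0.11 under the length offset (edgeR adjusted p = 0.0013) and -0.28 under the GC offset. *H3f3a* (chr1:180800832-180813943, minus strand) had 321, 320 and 310 CPM in fresh and 299, 302 and 302 CPM in RNA-Best libraries, and its log2 fold change was -0.09 ± 0.029 (SE, edgeR adjusted p = 0.00844). With the GC offset it was -0.22 (edgeR adjusted p = 1.46e-08), and with the replicate block and the length offset together the call was lost (-0.07, adjusted p = 0.0568).

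Their predicted proteins have 136 residues with 0 differences, yet 95 of the 411 coding bases differ, and the longest identical run is 23 bases. The first 90 coding bases show how, with the 20 differing bases in capitals.
H3f3a: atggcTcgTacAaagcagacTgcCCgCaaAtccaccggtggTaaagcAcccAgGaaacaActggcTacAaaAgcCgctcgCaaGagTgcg
H3f3b: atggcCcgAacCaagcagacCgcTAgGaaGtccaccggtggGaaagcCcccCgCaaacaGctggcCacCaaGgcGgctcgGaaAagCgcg
*H3f3a* made up 16.2%, 16.6% and 15.4% of the H3.3 counts in fresh and 16.6%, 16.8% and 16.6% in RNA-Best libraries. The log2 ratio of *H3f3a* to *H3f3b* was higher by 0.065 in RNA-Best (exact permutation test over libraries, two-sided, p = 0.1, n = 3 and 3, the smallest p this design allows), about the size of the larger SD of 0.066. The difference lay between 0.028, without fresh replicate 3, and 0.092, without fresh replicate 2, when single libraries were left out, and was 0.032 with the annotated pseudogenes added and 0.042 at equal depth.

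The sequence of *H3f3a* recurs in other genes. Its principal transcript shared 26.2% of its windows of read length with them, of which most were shared with *Gm17275*, an overlapping noncoding RNA gene (19.8%), while *H3f3c* shared 6.09%, *H3f3a-ps2* 3.58%, *Gm12657* 2.19% and *H3f3a-ps1* 0.365%. These processed pseudogenes and 4 more with shared windows all held counts. Together they reached 79.3%, 80.8% and 81.2% of the *H3f3a* count in fresh and 71.8%, 70.5% and 70.8% in RNA-Best libraries, a comparison chosen after its values were seen and not tested. Of the 8 copies, 5 fell and 0 rose, with a median log2 fold change of -0.25, where 24.8% of all tested genes fell. *H3f3c* had 102, 105 and 104 CPM in fresh and 88, 87.9 and 87.6 CPM in RNA-Best libraries (log2 fold change -0.25 ± 0.038, SE, edgeR adjusted p = 6.42e-07), *H3f3a-ps2* gave -0.32 ± 0.05 (adjusted p = 1.84e-06) and *H3f3a-ps1* gave -0.36 ± 0.12 (adjusted p = 0.011). With the length offset the calls of *H3f3c* (-0.08, edgeR adjusted p = 0.118), *H3f3a-ps1* (-0.18, adjusted p = 0.232) and *Gm12657* (-0.07, adjusted p = 0.215) were lost, and *H3f3a-ps2* gave -0.14 (adjusted p = 0.0244). With the copies added, the log2 fold change of *H3f3a* was -0.17 (edgeR adjusted p = 2.53e-06), and the ratio of *H3f3a* to *H3f3b* turned to a difference of -0.014 (exact permutation test, two-sided, p = 0.7). Whether reads counted for a copy came from *H3f3a* mRNA was not tested.

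**Figure D2:**
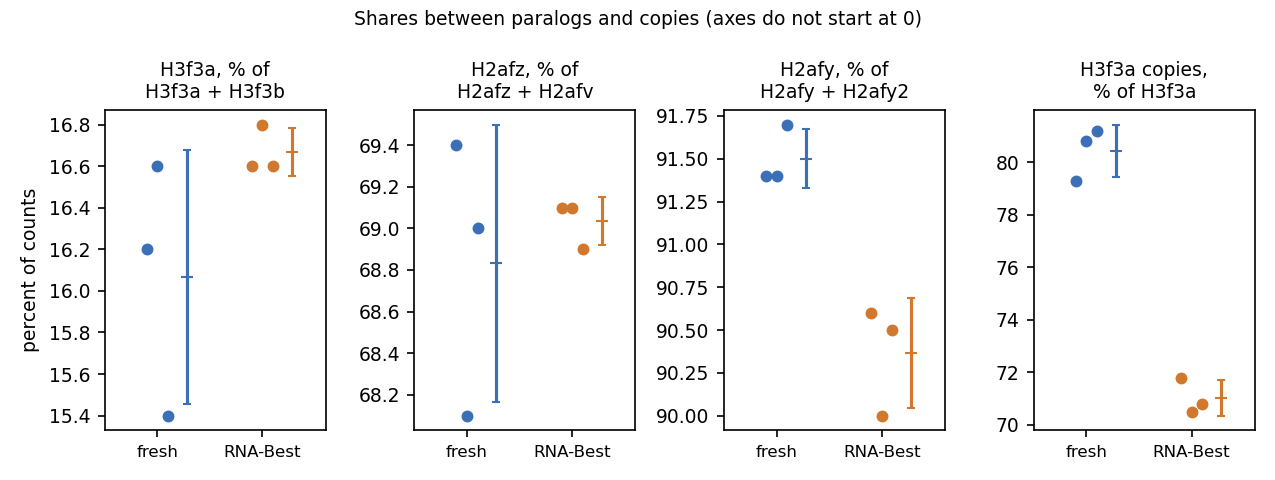
Share of counts in each library (points; side bars, mean and SD of 3 libraries) for *H3f3a* within H3.3, *H2afz* within H2A.Z and *H2afy* within macroH2A, and the counts of 8 *H3f3a* copies as a percentage of *H3f3a*. The *H2afz* share overlaps between the groups, and the copies stand at 79.3% to 81.2% in fresh and 70.5% to 71.8% in RNA-Best libraries.

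Of the 9 genes that fell, the linker histone genes kept the call under the fewest other settings, 11 of 18 each. *H1f0* (chr15:79028450-79030504, plus strand), which encodes H1.0, a linker histone of slowly dividing and differentiated cells, had 1010, 1029 and 1026 CPM in fresh and 993, 998 and 970 CPM in RNA-Best libraries. The groups were 11.8 CPM apart on a mean of 1022 CPM in fresh cells, and the log2 fold change of -0.06 ± 0.026 was the smallest that passed (SE, edgeR adjusted p = 0.0381). *H1fx* (chr6:87980421-87981637, minus strand) encodes H1.10 and had 61.8, 65.2 and 66.4 CPM in fresh and 58.1, 59.1 and 59.6 CPM in RNA-Best libraries, and its log2 fold change was -0.14 ± 0.045 (SE, edgeR adjusted p = 0.0128). With the length offset *H1f0* gave 0.02 (adjusted p = 0.552) and *H1fx* -0.01 (adjusted p = 0.861), and with the GC offset neither call held (edgeR adjusted p = 0.11 and 0.655). Leaving out fresh replicate 2, fresh replicate 3 or RNA-Best replicate 3 ended the call of *H1f0* (adjusted p = 0.0852, 0.064 and 0.198), and leaving out RNA-Best replicate 1 ended that of *H1fx* (adjusted p = 0.067).

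**Figure D3:**
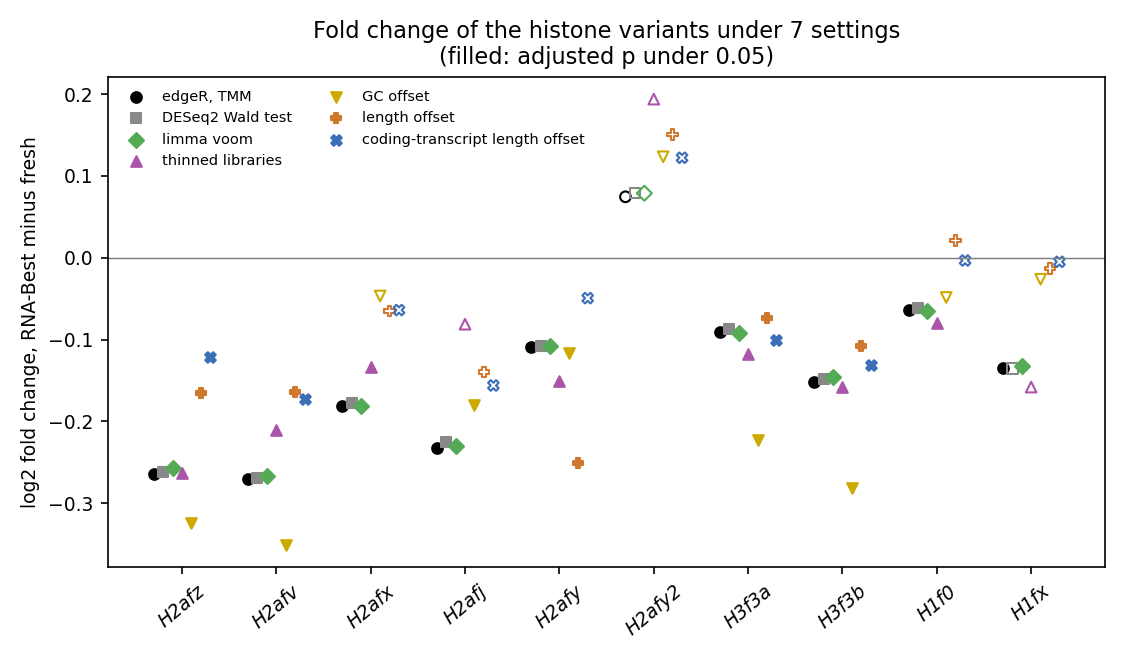
Log2 fold change (RNA-Best minus fresh) of each variant gene under 7 settings, with filled symbols where the adjusted p was under 0.05. *H2afz*, *H2afv* and *H3f3b* are below 0 and filled in each, while *H1f0* and *H1fx* lie near 0 with either length offset.

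Levels between genes were compared per kilobase of exons. In fresh cells the order was *H3f3b* (557 ± 15.6 CPM per kb, SD, n = 3), *H1f0* (497 ± 4.88), *H2afz* (308 ± 11.4), *H2afv* (151 ± 3.82), *H2afx* (122 ± 3.12), *H3f3a* (90.5 ± 1.74), *H1fx* (53 ± 1.94), *H2afy* (21.4 ± 0.415), *H2afj* (12.8 ± 0.441) and *H2afy2* (6.22 ± 0.0261). The order was the same in RNA-Best cells, and no neighbours in it overlapped in either group. It rests on the lengths used and on how copies are counted. Per kilobase of the longest coding transcript, a length chosen after seeing the data, *H2afz* rose to 511 ± 18.9 and overlapped with *H1f0* at 497 ± 4.88 in fresh cells, *H2afy* at 71.3 ± 1.38 stood above *H1fx*, and *H2afx* and *H3f3a* overlapped in RNA-Best cells. With the near-identical copies added, also chosen after seeing the data, *H3f3a* reached 163 ± 2.58 CPM per kb of exons in fresh cells and stood above *H2afv* and *H2afx*.

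**Figure D4:**
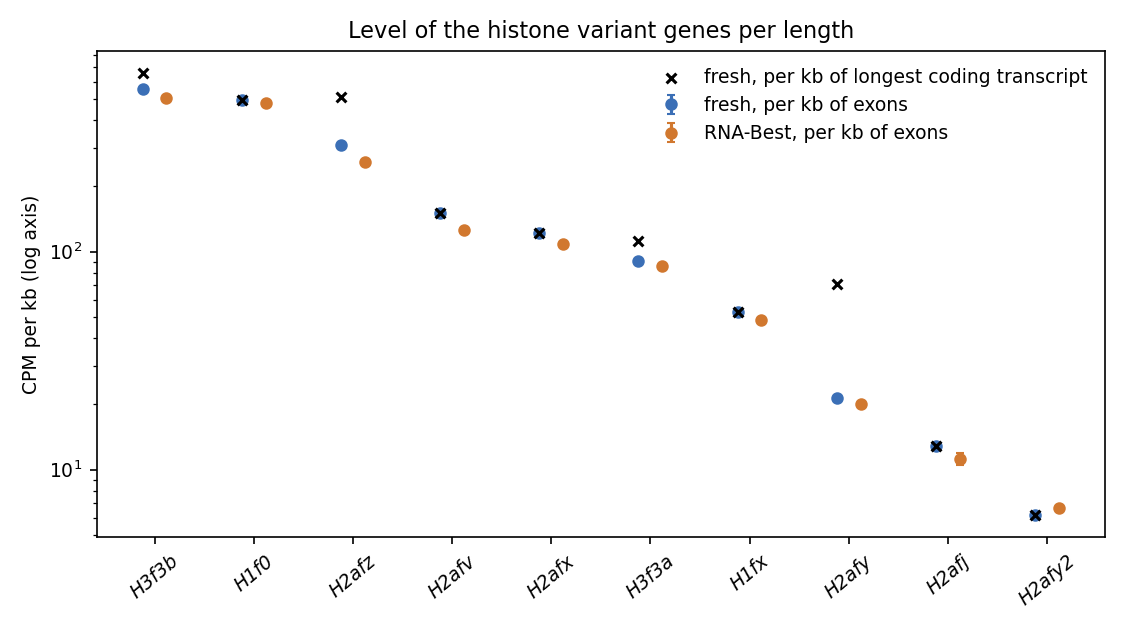
Mean level of each variant gene in CPM per kb of exons (log axis) in fresh and RNA-Best libraries, with SD bars that are mostly smaller than the points (n = 3 each), and crosses for fresh libraries per kb of the longest coding transcript. The levels run from 557 for *H3f3b* to 6.22 for *H2afy2* in fresh cells.

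A list of 41 genes was taken for the factors that deposit, remove, modify or bind histone variants, 5 of them for the centromeric H3 variant, which is not among the 10, and all were tested. In RNA-Best 15 rose, 11 fell and 15 did not pass, with a median log2 fold change of 0.01, where 26% of all tested genes rose and 24.8% fell. The share that fell is thus near that of all tested genes, while the share that rose is above it, a difference that was not tested. Among 14 genes for H2A.Z, 3 rose and 5 fell, among 10 for H3.3, 4 rose and 2 fell, and among 5 for H2A.X, 4 rose and 0 fell. Among 5 for H1 and H2A-H2B, 1 rose and 3 fell, among 2 for macroH2A, 1 rose and 0 fell, and among 5 for centromeric H3, 2 rose and 1 fell. These groups are too small to be read against the shares of all genes. *Srcap*, the ATPase of an H2A.Z exchange complex, went from 3.58 ± 0.343 to 8.66 ± 1.14 CPM (SD, n = 3 each), a log2 fold change of 1.21 ± 0.13 (SE, edgeR adjusted p = 7.1e-10), whereas *Znhit1* and *Dmap1*, subunits of such complexes, gave -0.22 ± 0.05 (adjusted p = 0.000269) and -0.17 ± 0.053 (adjusted p = 0.00938), and *Ruvbl2*, a helicase subunit, gave -0.20 ± 0.037 (adjusted p = 2.19e-05).

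*Atrx*, which deposits H3.3 at repeats with *Daxx*, went from 161 ± 5.84 to 273 ± 8.83 CPM (log2 fold change 0.73 ± 0.032, edgeR adjusted p = 2.24e-19), and *Ubn2*, a partner of the H3.3 chaperone *Hira*, from 37.1 ± 1.86 to 63.3 ± 2.21 CPM (0.73 ± 0.049, adjusted p = 1.29e-14). *Hira* itself gave -0.17 ± 0.067 (adjusted p = 0.0299). *Atm*, the kinase that phosphorylates H2A.X, went from 30 ± 3.51 to 66.6 ± 1.95 CPM (1.09 ± 0.057, adjusted p = 1.83e-17). *Cenpa*, the centromeric H3 variant, had 120 ± 1.25 and 121 ± 8.91 CPM and did not pass (0.02 ± 0.038, adjusted p = 0.749). The exonic lengths of the 15 genes that rose were between 5039 and 21757 bases and those of the 11 that fell between 1778 and 6215. With the length offset 10 rose and 11 fell, where 15.4% of all genes rose and 25.4% fell. Under it the call of *Dmap1* was lost (-0.11, adjusted p = 0.0982), *Znhit1* gave -0.13 (adjusted p = 0.0333), *Ruvbl2* -0.16 (adjusted p = 0.00092) and *Hira* -0.29 (adjusted p = 0.000673). Under the same offset *Srcap* gave 0.83 (adjusted p = 2.71e-06), *Atm* 0.83 (adjusted p = 2.42e-13), and *Atrx* and *Ubn2* 0.26 each (adjusted p = 1.55e-08 and 1.84e-05), by edgeR.

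**Figure D5:**
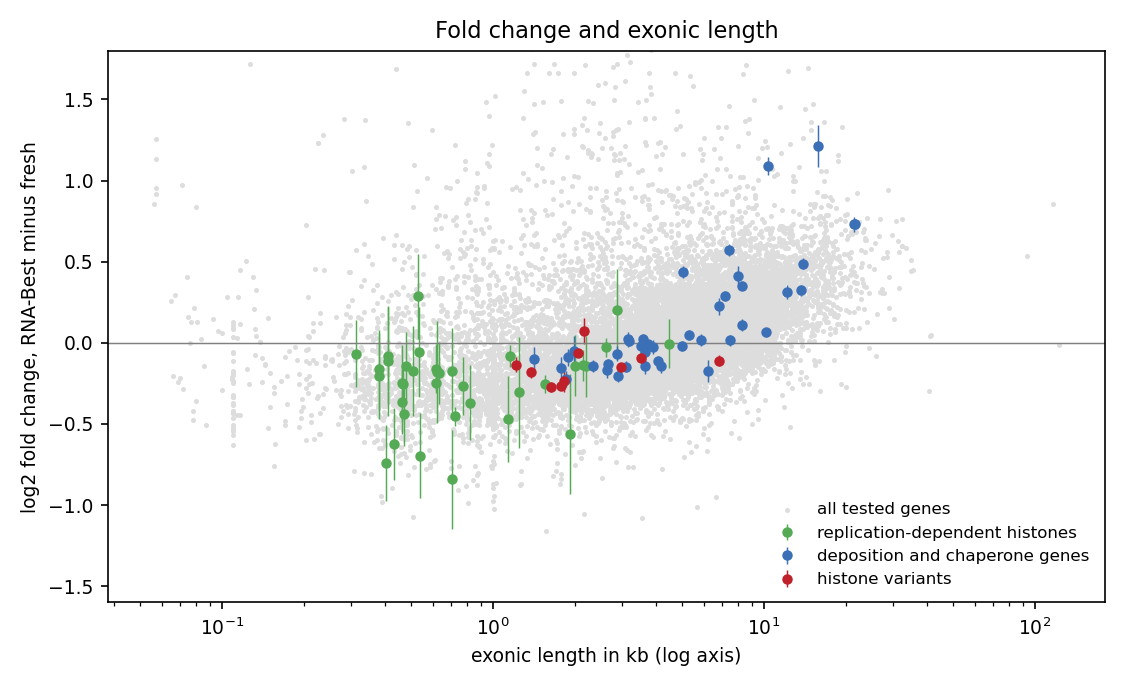
Log2 fold change (RNA-Best minus fresh, bars are SE) against exonic length in kb (log axis) for all tested genes in grey and for 3 gene groups, where 30 of the tested genes lie outside the range drawn. The variants (red) sit at 1217 to 6809 bases and mostly below 0, and the deposition genes that rose are at 5039 bases and longer.

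The replication-dependent histone genes were compared as the class whose mRNAs mostly end in a stem-loop, and a poly(A) library holds only those of their transcripts that it captured. The table held 68 of them and 36 passed the filter on low counts, at a median of 1.82 CPM against 193 CPM for the variants. In RNA-Best 7 of the 36 fell and 0 rose, where 24.8% of all tested genes fell and 26% rose. Their median log2 fold change was -0.18, against -0.14 for the variants. Few calls can be made at such low counts, so these numbers were not read against the shares. Their summed level was between 305 and 311 CPM in fresh and between 261 and 273 CPM in RNA-Best libraries, without overlap. The 3 with the highest counts all fell: *Hist3h2ba*, an H2B gene (95.7 ± 3.06 to 82.4 ± 2.72 CPM, SD, n = 3 each, log2 fold change -0.25 ± 0.041, edgeR adjusted p = 4.01e-06), *Hist1h4i*, an H4 gene (40.6 ± 0.0963 to 30.1 ± 1.27 CPM, -0.45 ± 0.056, adjusted p = 1.75e-08), and *Hist1h1c*, a linker histone gene (35.3 ± 0.345 to 29.8 ± 0.152 CPM, -0.25 ± 0.057, adjusted p = 0.000295). With the length offset, under which 25.4% of all genes fell, 2 of the 36 fell, *Hist3h2ba* no longer among them (-0.08, edgeR adjusted p = 0.108), and without RNA-Best replicate 3 the count was 3.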

How the data were processed

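Bulk RNA-seq libraries of LβT2 cells were analysed (3 fresh, 3 RNA-Best). Per the labels, the authors aligned reads to mm10 with STAR 2.5.1b and counted them per gene with featureCounts 1.5.0-p1. The deposited values are estimated counts, unscaled for library size. In the libraries 9.36% to 16.3% of values are not whole, so some reads were divided between genes, and paralogs, pseudogenes, overlapping and antisense genes are uncertain. The columns named Stab were taken as the RNA-Best libraries of the same number.

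Counts were rounded and tested in R 4.3.3 with edgeR 4.0.16 (quasi-likelihood, TMM, filterByExpr with minimum count 10) and Benjamini-Hochberg adjustment over all tested genes. Alternatives used DESeq2 1.42.0, limma 3.58.1 voom (the authors' method), upper-quartile scaling, no filter, a replicate block, loess offsets for length or GC content (span 0.5), thinning to 4909268 counts, summed copies and single libraries left out. Log2 ratios of paralogs were compared by exact permutation, which allows no p below 0.1. Only the main edgeR fit was run on simulated counts, and the alternatives and the permutation test were not.

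Symbols (46488 of 47069 genes), positions, exonic lengths and sequences came from a later GENCODE release of the same assembly. Windows of read length were compared between transcripts. TMM factors were between 0.994 and 1.01. Fresh libraries differed from each other beyond sampling noise (chi-square per gene 1.82 to 2.21), and RNA-Best libraries only slightly so (1.08 to 1.29). A count of 0 allows up to 3 counts, or 0.0632 to 0.611 CPM, which covers counting error only. Members and lists were chosen with earlier results of these data known. Named were the 10 variants, genes named after them as pseudogenes, the called deposition genes without overlap between groups that had the 4 highest and the 4 lowest log2 fold changes, *Cenpa*, the 3 replication-dependent histones of highest CPM and 4 reference genes. *H3f3c*, *Gm12657*, *Gm17275*, *Tmcc1* and *Aifm2* were named after their values were seen. Single-cell and qPCR data were not analysed here.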

Additional observations from a re-analysis of the deposited data

How the results depend on the processing

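Of 180 alternative values of the 10 variant genes, 155 kept their direction and their side of the threshold, 23 kept the direction but lost the call and 2 changed sign. The number of variants that fell was 9 in the main fit, where 24.8% of all tested genes fell. It was 5 with the length offset (25.4% of all genes) and 6 with the GC offset (26.4%). With the coding-transcript length offset, chosen after seeing the data, it was 4 (23.1%). It was 4 with the replicate block with length offset, 7 at equal depth, 8 by DESeq2 and 7 to 9 without single libraries. For the settings of the last sentence the share of all genes is not given, so these counts have no background beside them. With the length offset the log2 fold changes of *H2afx*, *H2afj*, *H1f0* and *H1fx* were -0.0652, -0.1399, 0.0213 and -0.0133. With the coding-transcript length offset those of *H2afx*, *H2afj*, *H2afy*, *H1f0* and *H1fx* were -0.0640, -0.1562, -0.0494, -0.0034 and -0.0050. With the replicate block and length offset together those of *H2afx*, *H2afj*, *H3f3a*, *H1f0* and *H1fx* were -0.0590, -0.1241, -0.0708, 0.0228 and -0.0177. With the GC offset *H2afx*, *H1f0* and *H1fx* gave -0.0468, -0.0486 and -0.0263. DESeq2 gave -0.1355 for *H1fx*. At equal depth *H2afj* and *H1fx* gave -0.0813 and -0.1582. Each of these values was past no threshold, and the causes were not tested.

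Leaving out single libraries moved the log2 fold change of *H2afx* between -0.206 and -0.155, of *H2afj* between -0.268 and -0.185, of *H1f0* between -0.074 and -0.050 and of *H1fx* between -0.169 and -0.122. The ratio of *H2afz* to *H2afv* lay between -0.014 and 0.028 without single libraries and was -0.052 at equal depth, that of *H2afy* to *H2afy2* was -0.345 at equal depth, and that of *H3f3a* to *H3f3b* was -0.014 with its near-identical copies added.

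Of the 10 ranks by level per kilobase in fresh cells, 8 stayed with the longest transcript's length and 6 with that of the longest coding transcript, and 7 with near-identical copies added. The deposition genes called numbered 26 of 41 (15 rose and 11 fell), where 50.8% of all tested genes were called. With the coding-transcript length offset 17 were called (9 rose and 8 fell), where 23.1% of all genes fell and the share that rose is not given. The replication-dependent genes called numbered 7 of 36, all lower, where 24.8% of all tested genes fell. They numbered 2 with each length offset, where 25.4% (exonic) and 23.1% (coding transcript) of all genes fell. They numbered 3 by DESeq2, 2 with the replicate block with length offset, 4 at equal depth, where 16 were tested, and 3 to 8 without single libraries. For the settings of the last sentence the share of all genes is not given. Same-numbered libraries did not deviate together (correlations -0.00844, 0.0121 and -0.0077), and the replicate block left the number of variants that fell at 9. The fewest counts in RNA-Best libraries among the 10 genes were those of *H2afj* (176, 107.5 and 231.5) and *H2afy2* (125.5, 73 and 170.5).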

Other observations

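Other histone variant genes were near or at 0. By symbol, 28 further variant genes or their pseudogenes were in the table, 26 of them stayed under 1 CPM in every library, and 10 of those had no count at all, among them the testis variants *H1fnt*, *Hils1* and *H2afb1*. The oocyte linker histone gene *H1foo* had 9, 11 and 7 counts in the fresh libraries and 0, 0 and 1 in the RNA-Best libraries, which are the less deep, and was not tested. The remaining 2 were *Cenpa* and *H3f3c*, described above. Of the *H2al1* genes, the highest value was 0.333 CPM, for *H2al1m*.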
